A study of Homo sapiens with 12 samples.

Results

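The comparison described here set 2 libraries from parental U87 cells given dBET6 against 2 libraries from parental U87 cells given JQ1, both at 1000 nM for 24 h, over every gene measured. These 4 libraries were chosen by their titles out of the 12 in the series, and no measured value was used to choose them. U87 (U87-MG) is an established human glioblastoma line, grown here in DMEM with fetal bovine serum. The other parental group was given DMSO, the solvent, for 24 h (2 libraries), and the same 3 treatments were given for 24 h to U87-MG cells with acquired resistance to JQ1 (6 libraries). The labels name no genotype or clone for either line, and they do not say whether the 2 libraries of a group came from separate cultures, so that a p-value here measures only the spread between libraries. All libraries were sequenced from polyadenylated RNA.

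JQ1 is a thienodiazepine that fills the acetyl-lysine pocket of the BET bromodomains and so displaces the BET proteins, BRD2 and BRD3 among them, from acetylated chromatin. dBET6 carries a JQ1-derived ligand joined by a linker to a thalidomide-like moiety that binds cereblon, which recruits substrates to a CUL4 ubiquitin ligase, and directs the ligase to the BET proteins, which are then destroyed by the proteasome. The BET proteins take part in the release of paused RNA polymerase II by P-TEFb, the CDK9 kinase with a cyclin T, which the 7SK ribonucleoprotein and its protein HEXIM1 hold inactive. The pair thus differs by the linker and the cereblon ligand, and the measurement asks how far the transcripts left after removal of the proteins differ from those left after block of their bromodomains.

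Of 52271 genes with counts, 19093 passed the filter on low counts, and 14239 (74.6% of those tested) differed between dBET6 and JQ1 at an adjusted p under 0.05. Of these, 6915 were higher with dBET6 (36.2% of genes tested) and 7324 were lower (38.4%). At a size of at least 4-fold, 2590 were higher (13.6%) and 1812 lower (9.49%), and at 16-fold or more 853 were higher (4.47%) and 101 lower (0.529%). Among protein-coding genes the 4-fold shares were 10.6% higher and 10.8% lower, and among lincRNA genes 25.8% and 3.78%. Some large values belong to genes near 0 with JQ1 and low with dBET6, such as SCN4A, at means of 0 and 1.10 CPM (log2 fold change 8.20). For comparison, JQ1 against DMSO changed 48.9% of the genes tested and dBET6 against DMSO 76.3%, and both contrasts share libraries with the one described here. For 2075 genes (10.9%) the whole 95% interval of the difference between dBET6 and JQ1 lay within 1.5-fold of no difference.

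**Figure D1:**
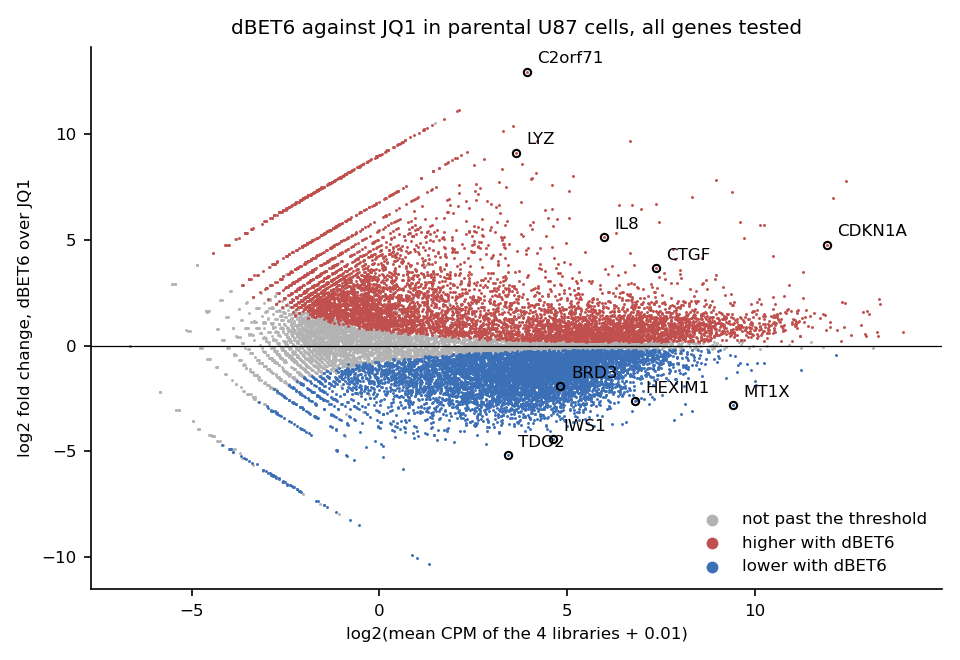
Log2 fold change of dBET6 over JQ1 in parental cells against log2 of the mean CPM of the 4 libraries (plus 0.01), with 1 point for each of the 19093 genes tested, red for the 6915 higher with dBET6, blue for the 7324 lower and grey for the rest. Ringed points are named genes. CDKN1A lies among the most abundant genes and C2orf71 at the top, while TDO2 and IWS1 lie below most genes of their level.

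The scale of these values needs to be stated before the genes. The 4 libraries held between 24768900 and 36602900 estimated counts, and the 2 replicates of a parental group correlated with r between 0.984 and 0.992 over genes on the log scale. With dBET6 a larger share of the counts came from few genes: the 50 most abundant genes took 25.8% and 26.5% of the counts with dBET6, 18.2% and 18.5% with JQ1, and 12.5% and 12.7% with DMSO. mRNAs encoded in the mitochondrial genome took 3.19% and 3.64% with dBET6, 1.55% and 2.03% with JQ1, and 1.46% and 1.65% with DMSO. Levels below are in CPM, a gene's counts relative to the total of its library, scaled by TMM factors, which put the median gene at a log2 fold change of 0.00. Scaled by total counts the median gene stood at -0.51, and scaled to the 13 mitochondrial mRNAs at -1.45, so each "higher" and "lower" is relative to the median gene and the share of called genes that were higher was 48.6%, 32.9% and 13.1% on the 3 scales. For dBET6 over DMSO the median gene stood at -0.65 by total counts and at -1.78 scaled to mitochondrial mRNAs. For JQ1 over DMSO it stood at -0.10 and -0.28. Levels given below as above, at or below the solvent are so on the TMM scale. The files hold no measure of RNA content per cell, and fewer cells of a type and less RNA per cell cannot be told apart in such bulk samples.

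The groups were checked against marker genes of the cell types they could hold. Of 10 glioma and mesenchymal markers 3 were under 1 CPM in each of the 4 libraries compared. Against JQ1, 5 of the 10 were called higher with dBET6 and 1 lower. VIM (vimentin) lay at 7550 and 7598 CPM with JQ1 and at 11525 and 11992 CPM with dBET6. CD44 lay between 387 and 518 CPM in the 4 libraries, whereas the astrocyte marker GFAP stayed under 1 CPM in all 6 parental libraries. Summed epithelial markers reached at most 4.61 CPM in any of these libraries, with 2 of 4 tested called higher and 1 lower with dBET6 than with JQ1. Endothelial markers summed to 0.524 and 0.383 CPM with JQ1 and 2.76 and 2.54 CPM with dBET6, with 3 of 4 tested called higher, and lymphoid markers to 0.0749 and 0.147 against 2.71 and 1.92 CPM, with the 1 that could be tested called higher. Neuron markers summed to 500 and 482 CPM with DMSO, 2540 and 2498 CPM with JQ1, and 2590 and 2091 CPM with dBET6 (1 of 6 tested higher and 1 lower with dBET6 than with JQ1), nearly all of it from TUBB3. Oligodendrocyte markers summed to 125 and 141, 169 and 164, and 111 and 104 CPM in the same order. Of the 3 tested, however, 2 were called higher and 1 lower with dBET6 than with JQ1 (median log2 fold change 1.02). The myeloid list also moved with the comparison. Of its 10 markers 7 could be tested, and all 7 were called higher with dBET6 (background 36.2%), while the summed level was 353 and 358 CPM with DMSO, 420 and 434 CPM with JQ1, and 688 and 840 CPM with dBET6, most of it from the lysosomal gene CD68. A marker near 0 CPM with DMSO and JQ1 passes the filter on low counts only through libraries where it is high. For such markers, also in the lymphoid and endothelial lists, a higher call was largely set in advance. These counts of calls are therefore no evidence about the lists. PTPRC and AIF1, which define leukocytes and macrophages, were too low to be tested. Of the others, LYZ (lysozyme) stood at 0.0749 and 0 CPM with JQ1 and at 24.9 and 24.8 CPM with dBET6, and ITGAM (integrin alpha M) at 0.0749 and 0.059 CPM against 14.1 and 11.4 CPM. Whether cells of another type contribute to these values was not tested.

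Transcripts of 4 genes that stood far apart between the compounds show the range of patterns, and the 250 bases before their RefSeq starts (GRCh38.p14) are printed here because these promoters stand before the transcripts described next. They were picked after their values were seen, and GENCODE 29 places the starts of HEXIM1, MT1X and IL8 at other bases. The HEXIM1 window is chr17:45148225-45148474 on the plus strand, that of MT1X chr16:56682220-56682469 on the plus strand, that of IL8 chr4:73740319-73740568 on the plus strand and that of CTGF chr6:131951373-131951622 on the minus strand. Each is read 5′ to 3′ along its gene. Capitals mark every match to the TATA box letters TATAAA, the AP-1 letters TGACTCA and the CCAAT letters CCAAT, on either strand.
HEXIM1: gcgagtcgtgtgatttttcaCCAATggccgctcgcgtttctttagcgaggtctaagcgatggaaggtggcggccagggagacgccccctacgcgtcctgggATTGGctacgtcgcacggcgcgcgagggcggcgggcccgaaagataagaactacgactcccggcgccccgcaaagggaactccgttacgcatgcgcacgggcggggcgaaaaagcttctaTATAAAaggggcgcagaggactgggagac
MT1X: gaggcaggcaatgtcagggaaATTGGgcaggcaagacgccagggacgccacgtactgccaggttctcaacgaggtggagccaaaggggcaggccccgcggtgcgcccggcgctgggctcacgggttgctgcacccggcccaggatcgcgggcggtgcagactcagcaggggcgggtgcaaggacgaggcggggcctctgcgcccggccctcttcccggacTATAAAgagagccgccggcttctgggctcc
IL8: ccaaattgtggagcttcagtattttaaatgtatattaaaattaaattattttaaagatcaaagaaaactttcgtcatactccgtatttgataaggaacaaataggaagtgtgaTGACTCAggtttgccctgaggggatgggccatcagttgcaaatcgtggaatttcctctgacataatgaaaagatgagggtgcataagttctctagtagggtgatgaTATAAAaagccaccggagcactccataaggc
CTGF: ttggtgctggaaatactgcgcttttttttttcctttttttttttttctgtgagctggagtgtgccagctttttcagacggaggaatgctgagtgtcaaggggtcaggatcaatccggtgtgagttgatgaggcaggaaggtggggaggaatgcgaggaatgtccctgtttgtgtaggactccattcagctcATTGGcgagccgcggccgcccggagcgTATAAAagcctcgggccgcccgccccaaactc
The TATAAA match began 29 bases before the start in HEXIM1, 30 in MT1X, 31 in IL8 and 32 in CTGF, and 11.1% of 27305 RefSeq promoter windows of the same length held such a match on either strand. The AP-1 letters occurred in IL8 only, 137 bases before the start (4.16% of all windows), and CCAAT letters in the other 3 (33.0% of all windows). The window of IER5L, a gene described below, was searched as well and is not printed. It held CCAAT letters 132 and 68 bases before the start, and neither TATAAA nor AP-1 letters. A match is a description of the letters and shows neither a bound factor nor a cause.

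HEXIM1, the P-TEFb inhibitor whose transcript is used as a marker of BET inhibition, was high with JQ1 and, on the TMM scale, at the solvent level with dBET6. Its level was 29.5 and 37.6 CPM with DMSO, 191 and 196 CPM with JQ1, and 30.3 and 33.1 CPM with dBET6. The JQ1 libraries stood above all 4 others, and the dBET6 libraries lay within the range of DMSO. The log2 fold change of dBET6 over JQ1 was -2.61 ± 0.10 (SE; adjusted p = 4.64e-18), and that of dBET6 over DMSO was -0.08 with an adjusted p of 0.464. MT1X, a metallothionein that binds zinc and copper, was also highest with JQ1, with 207 and 276 CPM with DMSO, 1140 and 1241 CPM with JQ1, and 152.4 and 189 CPM with dBET6 (dBET6 over JQ1 -2.80 ± 0.12, adjusted p = 2.77e-13). IL8 (CXCL8, the neutrophil chemokine interleukin 8) went the other way, at 20.6 and 22.7 CPM with DMSO, 3.79 and 3.24 CPM with JQ1, and 111 and 135 CPM with dBET6. It was below the solvent level with JQ1 and above it with dBET6 (dBET6 over JQ1 5.12 ± 0.14, adjusted p = 4.73e-20). CTGF (CCN2, a matricellular growth factor) was at 7.73 and 8.29 CPM with DMSO, 23.5 and 24.0 CPM with JQ1, and 310 and 298 CPM with dBET6, above the solvent with both compounds and 3.68 ± 0.08 log2 units higher with dBET6 than with JQ1 (adjusted p = 4.27e-22).

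**Figure D2:**
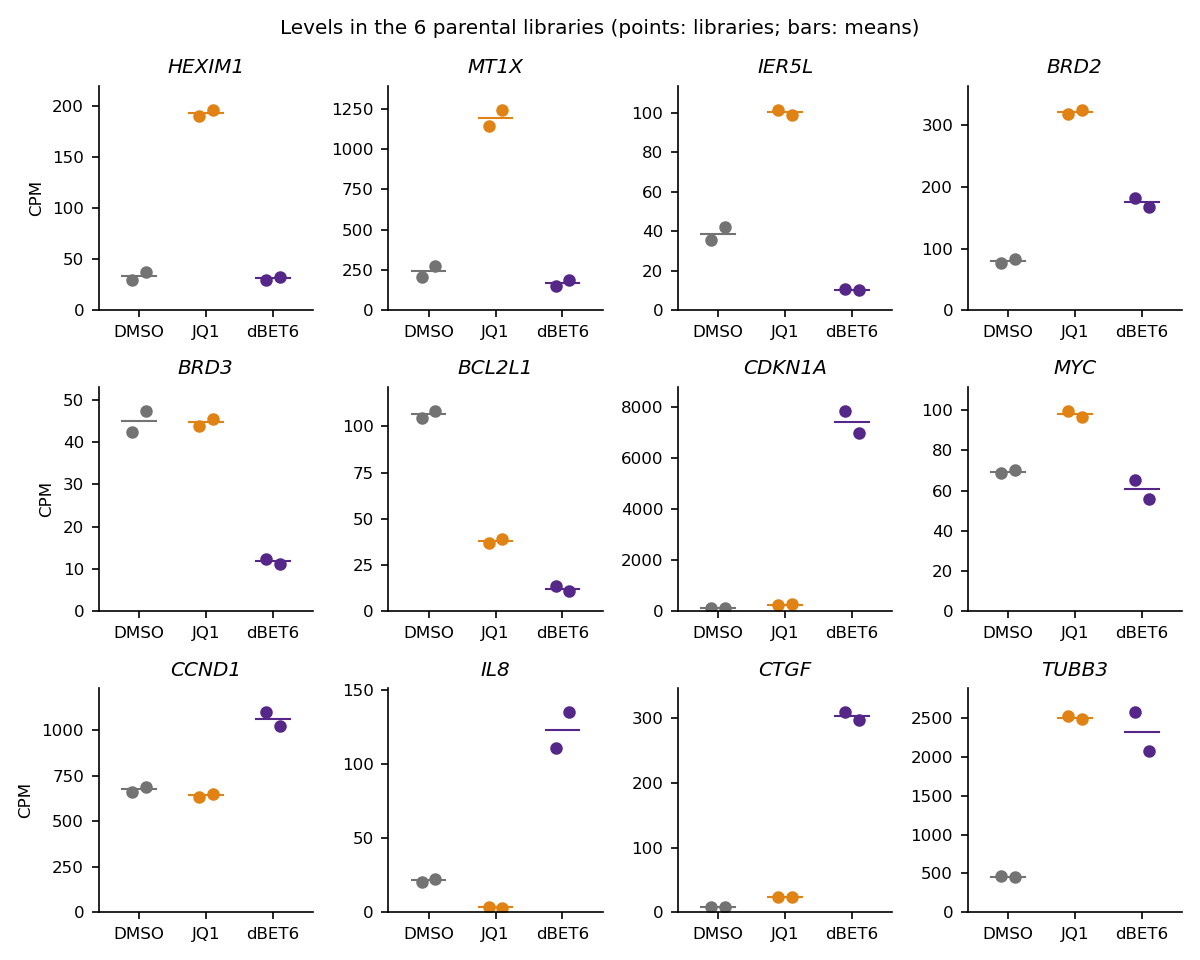
Level of 12 named genes in CPM (TMM-scaled, linear axis from 0) in the 6 parental libraries, with 1 point per library and a bar at the mean of the 2 libraries of each treatment. HEXIM1, MT1X and IER5L are highest with JQ1, IL8, CTGF and CDKN1A are highest with dBET6, and TUBB3 is high with both.

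Transcripts of the targets BRD2 and BRD3 were lower with dBET6 than with JQ1 (background 38.4%). BRD2 was at 76.0 and 82.7 CPM with DMSO, 318 and 324 CPM with JQ1, and 181 and 168 CPM with dBET6, so that it stood above the solvent with both compounds and 0.88 ± 0.08 log2 units lower with dBET6 than with JQ1 (log2 fold change -0.88, adjusted p = 2.49e-10). BRD3 was at 43.9 and 45.5 CPM with JQ1, the solvent level, and at 12.4 and 11.2 CPM with dBET6 (-1.92 ± 0.10, adjusted p = 1.26e-15). The groups did not overlap for either gene. These values are transcripts, and the proteins were not measured.

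Of the 7 genes of P-TEFb and the 7SK particle, 6 were lower with dBET6 and none higher (median log2 fold change -1.46, against 0.00 over all genes). Among these 6, the cyclin T gene CCNT2 stood at -0.77. Its call was lost in the limma tests on log2(FPKM + 0.1) (-0.094, adjusted p = 0.731) and log2(FPKM + 1) (-0.085, adjusted p = 0.725). MEPCE, the enzyme that caps 7SK RNA, was at 161 and 156 CPM with JQ1 and at 39.2 and 33.2 CPM with dBET6 (-2.12 ± 0.09), and LARP7, which binds the 3′ end of 7SK, at 35.0 and 38.9 against 9.37 and 9.06 CPM (-2.0 ± 0.13). The kinase subunit behaved otherwise: CDK9 was at 88.5 and 91.4 CPM with JQ1 and at 86.2 and 78.3 CPM with dBET6, with a difference of -0.13 (95% interval -0.30 to 0.04, adjusted p = 0.166). That difference turned to 0.16 when only genes of at least 10 CPM were fitted (adjusted p = 0.0375), and it was called lower without the first dBET6 library (-0.24, adjusted p = 0.0252), by total counts (-0.65) and on log2(FPKM + 1) (-0.29). Its partner CCNT1 differed by -0.22 (interval -0.41 to -0.02, adjusted p = 0.0447), and that call was lost with median-of-ratios size factors (-0.09, adjusted p = 0.406), without the first dBET6 library (adjusted p = 0.14) and without the second JQ1 library (adjusted p = 0.224).

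Other genes that serve transcription by polymerase II were mostly lower with dBET6. Of 29 elongation genes tested 18 were lower and 8 higher (median -0.74), where 38.4% of all genes were lower and 36.2% higher, the shares against which the other lists below are set. Among protein-coding genes alone, the nearer background for such lists, 45.7% were lower and 34.7% higher (median -0.20). Against all genes, a list with more lower members thus looks more lowered than against protein-coding genes. CDK12, which phosphorylates the polymerase tail during elongation, was at 131 and 134 CPM with JQ1 and at 20.1 and 20.4 CPM with dBET6 (-2.71 ± 0.09, adjusted p = 2.57e-19), and the PAF complex genes LEO1 (-3.44), CDC73 (-2.57) and RTF1 (-1.93) were lower too. Of 32 Mediator genes 26 were lower and 3 higher (median -1.38), led by MED1, at 78.4 and 85.8 CPM with JQ1 and 7.80 and 7.25 CPM with dBET6 (-3.45 ± 0.11). Of 12 Integrator genes 10 were lower and 2 higher (median -0.94; INTS7 -2.67), and of 22 SR splicing factor genes 18 were lower and 2 higher (median -0.89; SRSF2 -1.85). The subunits of the polymerase were mixed. Of 12 tested 6 were higher and 3 lower (median 0.35, -0.17 by total counts and -1.13 when scaled to mitochondrial mRNAs; without the first JQ1 or the first dBET6 library 0.23). POLR2E, at 266 and 258 CPM with JQ1 against 725 and 592 CPM with dBET6 (1.33 ± 0.09), turned to -0.15 on that scale. The largest subunit gene, POLR2A, could not be read, because only part of its transcripts could be paired with the gene.

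Of 36 genes for chromatin acetylation and remodelling 26 were lower and 6 higher (median -1.02; shares over all genes 38.4% lower and 36.2% higher). SMARCB1, a core subunit of the SWI/SNF remodeler, was at 69.7 and 69.3 CPM with JQ1 and at 6.94 and 6.52 CPM with dBET6 (-3.37 ± 0.11), and SUZ12, of Polycomb repressive complex 2, at 49.8 and 55.1 against 10.8 and 11.0 CPM (-2.26 ± 0.10). The log2 fold changes of JQ1 over DMSO were -0.12 for SMARCB1 and 0.01 for SUZ12 and did not pass the test.

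Transcripts of the pathway that dBET6 uses were mixed, with CRBN among the lower. CRBN, which encodes cereblon, was at 23.5 and 21.1 CPM with DMSO, 25.9 and 27.6 CPM with JQ1, and 9.13 and 6.89 CPM with dBET6 (-1.74 ± 0.12 against JQ1, adjusted p = 5.02e-13). Of 21 genes of the cereblon ligase and of NEDD8 conjugation, which switches such ligases on, 13 were lower and 8 higher (median -0.51; shares over all genes 38.4% lower and 36.2% higher). UBA3, of the NEDD8-activating enzyme, was at 31.9 and 35.8 CPM with JQ1 and at 4.85 and 4.82 CPM with dBET6 (-2.81 ± 0.13), and CAND1, the exchange factor of cullin ligases, differed by -2.07 ± 0.10. Among 30 proteasome genes 14 were lower and 10 higher, shares near those over all genes. The median of -0.16 was -0.26 without the first JQ1 library and turned to 0.13 among genes of at least 10 CPM, and the ATPase genes PSMC6 (-3.41) and PSMC2 (-2.11) were among the lower ones.

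For some genes the solvent level lay between the compounds. IL8 above is one, and by the rule that looked for opposite calls against DMSO the leading genes high with JQ1 and low with dBET6 were PTPN13, GLCE, IER5L, EXOC6B, EYA4 and GAREM, and those low with JQ1 and high with dBET6 were IL8, MYH15, PLEKHA6, ANO7, LAT2 and HOXB2. The rule chose them by these contrasts, so their values are given as a description. PTPN13, a large protein tyrosine phosphatase, was at 18.4 and 14.2 CPM with DMSO, 51.2 and 62.2 CPM with JQ1, and 5.28 and 4.66 CPM with dBET6. IER5L was at 35.5 and 42.1, 101 and 99, and 10.7 and 10.3 CPM in the same order. HOXB2, a homeobox transcription factor, was at 23.9 and 28.0 CPM with DMSO, 9.18 and 7.02 CPM with JQ1, and 70.8 and 64.2 CPM with dBET6. MYH15, a myosin heavy chain gene, was at 11.3 and 12, 1.57 and 2.04, and 43.3 and 48.8 CPM.

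Other genes moved by at least 4-fold from DMSO with both compounds and did not pass the test between them, again as a description of genes chosen for this. TUBB3, the neuronal beta tubulin, was at 466 and 452 CPM with DMSO, 2521 and 2480 CPM with JQ1, and 2573 and 2073 CPM with dBET6, a difference between the compounds of -0.11 (95% interval -0.29 to 0.08). Another tested entry named TUBB3 overlaps this one on the same strand, and reads could be split between them. The call depended on the setting: TUBB3 was called higher with dBET6 when only genes of at least 10 CPM were fitted (0.18, adjusted p = 0.0356). It was called lower without the first dBET6 library (-0.31, adjusted p = 0.00218), with no filter (-0.24, adjusted p = 0.027) and by total counts (-0.63, adjusted p = 8.91e-08). The core histone gene HIST1H2BD rose from 1.36 and 1.44 CPM with DMSO to 50.8 and 61.1 CPM with JQ1 and 62.5 and 63.7 CPM with dBET6 (difference 0.17, interval -0.03 to 0.38). HIST1H2BD was called higher with dBET6 with median-of-ratios size factors (0.30, adjusted p = 0.00874), in the DESeq2 test (adjusted p = 0.0151) and among genes of at least 10 CPM (0.47, adjusted p = 0.000263). It was also called higher in a fit of only the libraries compared (0.24, adjusted p = 0.0415) and without the second JQ1 library (0.27, adjusted p = 0.0413), but lower by total counts (-0.34, adjusted p = 0.00456). Among those lower with both, SMAGP was at 39.7 and 39.7 CPM with DMSO, 8.18 and 8.20 CPM with JQ1, and 9.08 and 7.20 CPM with dBET6 (difference -0.01, interval -0.29 to 0.28). Its difference was -0.23 without the first dBET6 library, 0.12 without the second, and -0.53 by total counts with an adjusted p of 0.00116. EREG, the EGF receptor ligand epiregulin, differed by -0.20 (interval -0.43 to 0.03). It was called lower without the second dBET6 library (-0.38, adjusted p = 0.0149), without the second resistant JQ1 library (-0.25, adjusted p = 0.0486), with no filter (-0.33, adjusted p = 0.0105) and by total counts (-0.72, adjusted p = 2.07e-05). SERPINI1, the protease inhibitor neuroserpin, was at 0.877 and 1.08 CPM with DMSO, 5.76 and 6.22 CPM with JQ1, and 7.66 and 7.72 CPM with dBET6, with a difference of 0.36 and an adjusted p of 0.0646. SERPINI1 was called higher with median-of-ratios size factors (0.48, adjusted p = 0.0147) and in a fit of only the libraries compared (0.43, adjusted p = 0.0217), and stood at -1.11 when scaled to mitochondrial mRNAs.

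Cell cycle genes separated into a strongly higher inhibitor and lower mitotic genes. CDKN1A, which encodes the cyclin-dependent kinase inhibitor p21, was at 123 and 134 CPM with DMSO, 265 and 272 CPM with JQ1, and 7829 and 6963 CPM with dBET6. The dBET6 libraries stood above all others, by a log2 fold change over JQ1 of 4.78 ± 0.09 (adjusted p = 4.73e-23), and the value remained 3.30 when scaled to mitochondrial mRNAs. Of the other 2 tested CDK inhibitor genes, CDKN2D was higher (1.55 ± 0.11, and 0.08 when scaled to mitochondrial mRNAs) and CDKN1B lower (-0.36). Of 50 G2/M and mitosis genes 39 were lower with dBET6 and 6 higher (median -1.25; shares over all genes 38.4% lower and 36.2% higher). CCNB1 (cyclin B1) was at 112 and 119 CPM with JQ1 and at 29.2 and 29.4 CPM with dBET6 (-1.98 ± 0.09), CENPF at 143 and 138 against 29.8 and 30.9 CPM (-2.21 ± 0.09). The mitotic kinase AURKA was at 38.3 and 38.5 against 8.70 and 6.63 CPM (-2.32 ± 0.11). These genes were also lower with JQ1 than with DMSO, with a median over the list of -1.04, against -2.24 for dBET6.

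Of 22 genes of the G1 cyclins and the RB pathway 14 were lower and 6 higher (median -0.97; shares over all genes 38.4% lower and 36.2% higher), among the lower ones E2F4 (-1.82), RBL1 (-2.0), SKP2 (-1.59) and CDK6 (-1.86). CCND1 (cyclin D1) was among the higher ones, at 635 and 648 CPM with JQ1 and 1099 and 1023 CPM with dBET6 (0.73 ± 0.08), and so was E2F1, at 105 and 95.9 against 215 and 177 CPM (0.96 ± 0.09), but both turned when scaled to mitochondrial mRNAs, to -0.75 and -0.51. On the deposited TPM scale both also stood lower with dBET6, at 236 against 258 for CCND1 and 42.4 against 49.3 for E2F1. Of 48 DNA replication genes 23 were lower and 16 higher, with a median of -0.27 that turned to 0.19 among genes of at least 10 CPM, and with PRIM1, the small primase subunit, at 6.96 and 8.94 CPM with JQ1 and 0.904 and 0.777 CPM with dBET6 (-3.23 ± 0.26). Of 38 genes of homologous recombination and the Fanconi pathway 32 were lower and 4 higher (median -1.25), among them BRCA2 (-2.99 ± 0.21) and NBN (-2.12 ± 0.11).

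MYC was at 68.7 and 70.0 CPM with DMSO, 99.5 and 96.4 CPM with JQ1, and 65.3 and 55.8 CPM with dBET6. The JQ1 libraries were the highest, and dBET6 stood 0.69 log2 units below them (log2 fold change -0.69 ± 0.09, adjusted p = 5.67e-08). Of 10 tested genes of the MYC network 7 were lower and 2 higher (median -0.68). MGA, a large MAX-binding repressor, was at 42.4 and 44.7 CPM with JQ1 and 2.52 and 2.74 CPM with dBET6 (-4.05 ± 0.17), and MXI1, a MAX partner that opposes MYC, was at 27.1 and 27.5 against 12.7 and 11.1 CPM (-1.20 ± 0.11). MXD1, another MAX partner that opposes MYC, went the other way, at 9.68 and 9.23 CPM with JQ1 and 38.5 and 36.8 CPM with dBET6 (1.99 ± 0.11).

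p53 target genes were higher with dBET6. Of 29 tested 22 were higher and 4 lower (background 36.2% and 38.4%; median 1.61, and 0.14 when scaled to mitochondrial mRNAs), although the list holds CDKN1A and shares BTG2 with the early genes. BTG2, an antiproliferative gene, was at 0.923 and 1.08 CPM with DMSO, 1.5 and 1.74 CPM with JQ1, and 162 and 167 CPM with dBET6 (6.67 ± 0.14, adjusted p = 1.01e-23). GADD45A, a growth arrest gene, was at 38.9 and 38.0 CPM with JQ1 and 356 and 340 CPM with dBET6 (3.18 ± 0.08). The death promoters of the list differed among themselves: BBC3 (PUMA, 2.57) and PMAIP1 (NOXA, 2.28) were higher, and BAX (-0.46) and TNFRSF10B (-1.10) lower.

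Of 11 death inhibitors 5 were higher and 5 lower, against 36.2% and 38.4% of all genes. Their median was 0.22, and 0.11 without the first dBET6 library, -0.12 in a fit of only the libraries compared, -0.16 and -0.15 on log2(FPKM + 0.1) and log2(FPKM + 1), -0.30 by total counts and -1.25 when scaled to mitochondrial mRNAs, so that no direction is given for the list. MCL1 was at 215 and 234 CPM with JQ1 and 585 and 587 CPM with dBET6 (1.38 ± 0.08), whereas BCL2L1, which encodes BCL-XL, was at 105 and 108 CPM with DMSO, 37.0 and 39.4 CPM with JQ1, and 13.5 and 11.0 CPM with dBET6 (-1.64 ± 0.12). MCL1 turned to -0.09 when scaled to mitochondrial mRNAs. For BCL2L1 and for BRD3 the transcripts that could be paired gave less than the full deposited level of the gene, which limits their absolute values. Of 22 death promoters 11 were lower and 9 higher, with a median of -0.25 that turned to 0.48 among genes of at least 10 CPM, and the caspase genes CASP2 (-2.98) and CASP9 (-2.66) were among the lower.

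Of 27 genes of the NRF2 oxidative stress response 17 were higher and 6 lower (median 0.68, and -0.80 when scaled to mitochondrial mRNAs). OSGIN1, an oxidative stress growth inhibitor, was at 49.5 and 45.0 CPM with JQ1 and 1762 and 1478 CPM with dBET6 (5.10 ± 0.09). SRXN1 (sulfiredoxin) was at 143 and 142 against 2795 and 2617 CPM (4.25 ± 0.08), and the cystine transporter SLC7A11 at 8.63 and 10.4 against 108 and 128 CPM (3.64 ± 0.13). HMOX1 (heme oxygenase) was already above the solvent with JQ1, at 579 and 558 CPM against 174 and 218 CPM, and reached 2990 and 2903 CPM with dBET6 (2.37 ± 0.10 over JQ1). Of 31 genes of ATF4 and the unfolded protein response 16 were higher and 9 lower (median 0.36, -0.15 by total counts and -1.10 on the mitochondrial scale), led by SESN2 (3.39), PPP1R15A (2.04) and the chaperone HSPA5 (1.98). Of 21 heat shock genes 10 were higher and 6 lower (median 0.21, 0.09 without the first dBET6 library, -0.32 by total counts and -1.27 on the mitochondrial scale).

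Immediate early genes, transcribed within minutes of a stimulus from short genes, were higher with dBET6 in 21 of 30 cases and lower in 5 (background 36.2% and 38.4%; median 1.44, and -0.04 when scaled to mitochondrial mRNAs). EGR1, a zinc finger factor, was at 28.9 and 28.8 CPM with DMSO, 44.5 and 37.8 CPM with JQ1, and 807 and 655 CPM with dBET6 (4.15 ± 0.10), and MAFF, a small MAF factor, at 22.4 and 22.8, 9.83 and 8.55, and 211 and 175 CPM (4.39 ± 0.10 over JQ1). FOS (3.85) and JUNB (3.37) were higher as well, and BTG1 was lower (-2.27). Of the genes that feed back on ERK signalling 11 of 20 were lower and 7 higher (median -0.68), with DUSP6, an ERK phosphatase, at 56.1 and 59.6 CPM with DMSO, 20.7 and 17.7 CPM with JQ1, and 2.05 and 1.76 CPM with dBET6 (-3.33 ± 0.16 over JQ1). DUSP4 (-2.72) and the ETS factor ETV1 (-2.51) were also lower.

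Of 29 receptor tyrosine kinase genes and their ligands 13 were lower and 11 higher, near the shares over all genes. Their median was -0.07, -0.15 without the second dBET6 library, 0.06 with median-of-ratios size factors and 0.16 among genes of at least 10 CPM. The ligand gene PDGFC was at 14.8 and 13.2 CPM with JQ1 and 1.14 and 0.829 CPM with dBET6 (-3.82 ± 0.24), and FGF2 at 70.5 and 81.6 against 14.9 and 13.6 CPM (-2.41 ± 0.11). EGFR was at 138 and 142 CPM with JQ1 and 32.7 and 25.4 CPM with dBET6 (-2.26 ± 0.10), but it turned to 0.59 and 0.57 in the tests on deposited FPKM, so no direction is given for it.

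Matrix genes were higher with dBET6 in 33 of 45 cases and lower in 4 (background 36.2% and 38.4%; median 1.02), although the median was 0.50 by total counts and -0.44 when scaled to mitochondrial mRNAs. CYR61 (CCN1), a matricellular protein, was at 27.4 and 24.8 CPM with JQ1 and 155 and 154 CPM with dBET6 (2.56 ± 0.09), and LOX, a collagen cross-linking enzyme that was lower with JQ1 than with DMSO, at 44.3 and 47.7 against 221 and 215 CPM (2.24 ± 0.08). JQ1 and dBET6 lay on opposite sides of the solvent in LOX but not in CYR61.

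Of 28 NF-kB and inflammation genes 14 were higher with dBET6 than with JQ1 and 8 lower (median 0.41, -0.11 by total counts and -1.06 on the mitochondrial scale). ICAM1, an adhesion molecule, was at 9.73 and 11.3 CPM with DMSO, 5.89 and 6.28 CPM with JQ1, and 48.6 and 39.6 CPM with dBET6 (2.86 ± 0.12 over JQ1). IL1B (interleukin 1 beta) was at 28.4 and 27.0 CPM with DMSO, 0.449 and 0.59 CPM with JQ1, and 2.47 and 2.17 CPM with dBET6, so that both compounds stood below the solvent and dBET6 was 2.17 ± 0.25 log2 units above JQ1 (adjusted p = 4.65e-09). Of 30 interferon-stimulated genes 14 were lower and 10 higher, near the shares over all genes (38.4% and 36.2%). Their median of -0.19 turned to 0.20 and 0.19 on log2(FPKM + 0.1) and log2(FPKM + 1) and to 0.04 among genes of at least 10 CPM, with IFI16 (-2.73) and IFIT3 (-2.60) among the lower.

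Transcripts of the ribosome were mostly higher: of the 75 genes for proteins of the cytosolic ribosome 73 were called higher and none lower (background 36.2%), with a median of 0.95, which was 0.43 by total counts and -0.53 when scaled to mitochondrial mRNAs. RPS19 was at 677 and 641 CPM with JQ1 and 2241 and 2152 CPM with dBET6 (1.74 ± 0.09). Such genes have many processed pseudogenes, among which counting can split reads. The nucleolar genes that assemble ribosomes were lower in 20 of 38 cases and higher in 12 (median -0.51). Of 13 mitochondrial mRNAs 12 were higher and none lower (median 1.49; MT-ND5 1.76 ± 0.11), and of 66 nuclear genes of oxidative phosphorylation 51 were higher and 8 lower (median 0.65, and -0.83 when scaled to mitochondrial mRNAs; NDUFB8 1.35, which turned to -0.12). Another tested entry named NDUFB8 overlaps it on the same strand, and reads could be split between them.

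Histone genes whose mRNA can be polyadenylated were higher in 10 of 18 cases and lower in 2 (median 0.59, and -0.87 when scaled to mitochondrial mRNAs). H1FX, a linker histone, was at 99.9 and 122 CPM with DMSO, 412 and 367 CPM with JQ1, and 1844 and 1793 CPM with dBET6 (2.22 ± 0.10 over JQ1), and H1F0, the linker histone of resting cells, at 23.8 and 29.7, 106 and 107, and 367 and 404 CPM (1.86 ± 0.09). In these 2 genes the 3 treatments were ordered DMSO, JQ1, dBET6 with no overlap. Of 6 metallothionein genes 4 were lower with dBET6 and none higher (median -0.49, and -1.11 without the second dBET6 library and -1.38 among genes of at least 10 CPM). MT1E, at 584 and 556 CPM with JQ1 and 59.4 and 73.3 CPM with dBET6 (-3.10 ± 0.14), went below the solvent level of 227 and 301 CPM. Members of this family are near copies, and reads could be split between them.

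Of 29 genes of hypoxia and glycolysis 14 were higher and 9 lower (median 0.22, which was 0.36 without the second dBET6 library and turned to -0.05 without the first, -0.30 by total counts and -1.27 on the mitochondrial scale). SLC2A3, the glucose transporter GLUT3, was at 97.7 and 103 CPM with JQ1 and 925 and 840 CPM with dBET6 (3.14 ± 0.09). Of 29 cholesterol and fatty acid genes 13 were lower and 11 higher, near the shares over all genes of 38.4% and 36.2%. Their median of -0.16 was -0.26 without the first JQ1 library and turned to 0.21 on both FPKM scales and to 0.10 among genes of at least 10 CPM, and SQLE, squalene epoxidase, stood at -2.65. Of 43 autophagy and lysosome genes 21 were higher and 17 lower (median 0.15, between 0.07 and 0.33 with each library left out, -0.37 by total counts and -1.33 on the mitochondrial scale; MAP1LC3B 1.88). Of 15 YAP/TEAD genes 8 were lower and 7 higher (median -0.29, and -0.43 without the second JQ1 library).

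**Figure D3:**
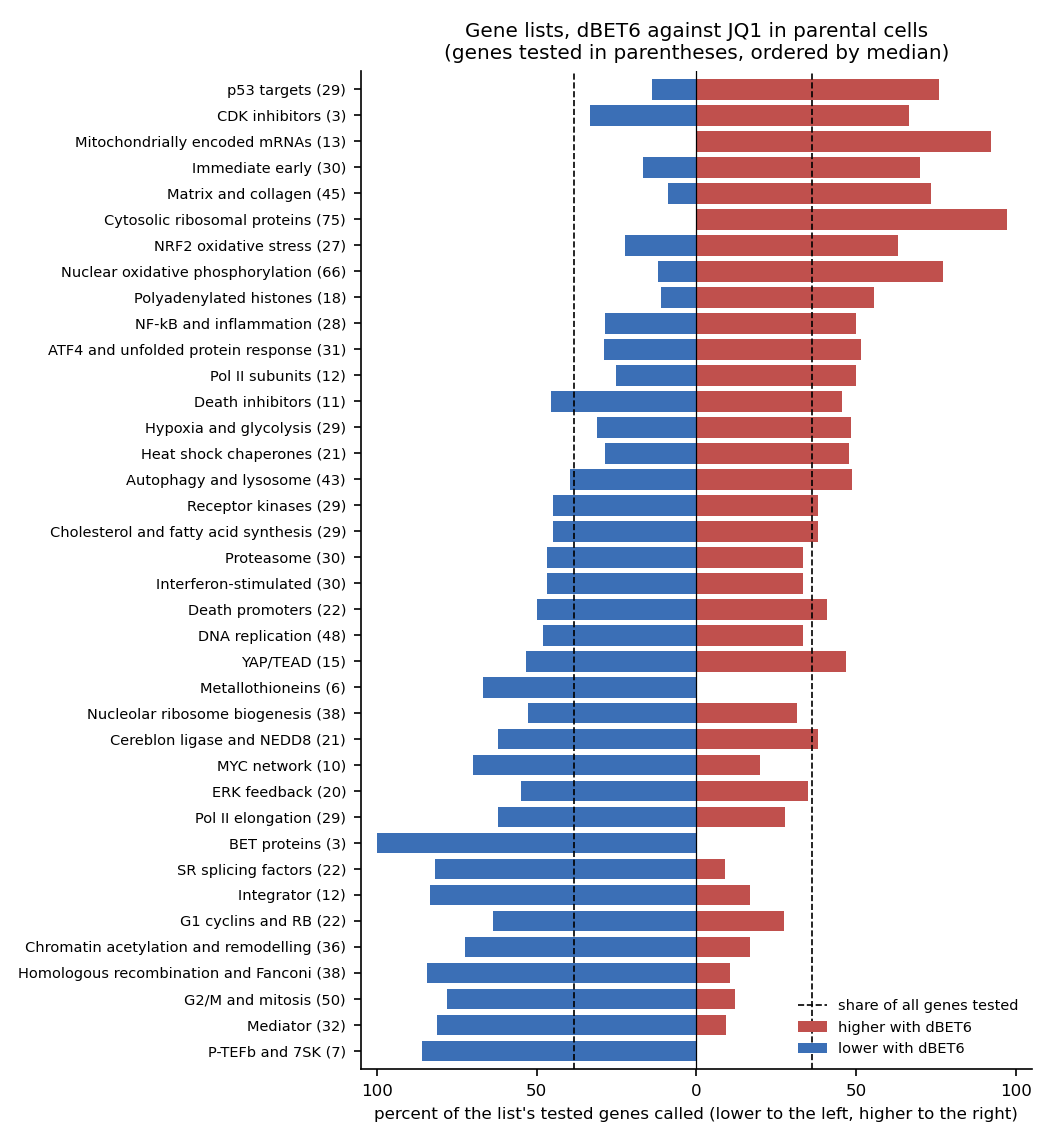
Percent of the tested genes of each of 38 lists called higher (red, to the right) or lower (blue, to the left) with dBET6 than with JQ1 in parental cells, ordered by median log2 fold change, with the number tested in parentheses. Dashed lines mark the share of all 19093 genes tested, 36.2% higher and 38.4% lower. Among protein-coding genes alone the shares were 34.7% and 45.7%. Ribosomal proteins, mitochondrial mRNAs, p53 targets and matrix genes reach far past the right line, and P-TEFb and 7SK, Mediator, mitosis and recombination genes past the left one.

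The 12 genes at each end of the ranking were taken by a rule of size among protein-coding genes of at least 10 CPM on average, and part of them are given here. Since the rule used this contrast, they are described without a test. C2orf71, a photoreceptor ciliary gene, had 0 counts over both JQ1 libraries and 1223 over both dBET6 libraries, which makes it at least 748-fold higher against a floor of 3 counts over the group. C9orf152 was at 0.225 and 0.265 CPM with JQ1 and 214 and 195 CPM with dBET6, LYZ at the values given above, CLDN6, a claudin of early development, at 0.1248 and 0.118 against 39.0 and 33.0 CPM, the homeobox gene PKNOX2 at 0.2 and 0.354 against 81.7 and 60.6 CPM, and the semaphorin SEMA4A at 0.449 and 0.354 against 69.3 and 61.5 CPM. In DMSO each of these 6 genes was under 0.2 CPM. In all, 54 genes, 44 of them protein-coding, were under 0.5 CPM in both JQ1 libraries and at 10 CPM or more on average with dBET6, and none met the reverse condition. The genes that came nearest to it were TMEM59L, at 7.93 and 7.28 CPM with JQ1 and 0.19 and 0.466 CPM with dBET6, then MAP3K1 and the mitochondrial assembly gene COA7. C2orf71 and CLDN6 overlap other genes on the opposite strand (FAM179A and TNFRSF12A), and since the strand setting of the counting is not given in the sources used here, reads of such pairs cannot be told apart.

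At the low end stood TDO2, tryptophan dioxygenase, at 51.0 and 42.1 CPM with DMSO, 19.8 and 21.6 CPM with JQ1, and 0.713 and 0.414 CPM with dBET6 (-5.17 ± 0.31). IWS1, a partner of the elongation factor SPT6, was at 45.7 and 48.4 CPM with JQ1 and 2.38 and 2.02 CPM with dBET6 (-4.41 ± 0.17), and VANGL1, a planar polarity gene, at 27.4 and 27.5 against 1.90 and 1.40 CPM (-4.05 ± 0.17). RIF1, a repair and replication timing factor, SMARCAD1, a remodeler, PHF3, which binds the polymerase tail, and KIF20B, a kinesin, were lower by log2 fold changes of -3.78, -3.81, -3.81 and -3.94. In GENCODE 29 (GRCh38) IWS1 lies at chr2:127436207-127526886, RIF1 at chr2:151409883-151508013, and PHF3 at chr6:63635820-63779336, and among the higher genes CDKN1A lies at chr6:36676460-36687339, BTG2 at chr1:203305491-203309602 and EGR1 at chr5:138465490-138469315.

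Length was described over all genes, with no test. Ranked into 10 equal bins by the mean length of their transcripts, the shortest genes (median 522 bases) had a median log2 fold change of 0.83, with 44.7% higher and 11.2% lower, and the longest (median 6821 bases) of -0.73, with 23.8% higher and 60.1% lower. The medians fell in every step from bin 1 to bin 10. By genomic span they fell from 0.76 in the shortest bin to -0.59 in the ninth (median span 110 kb) and stood at -0.50 in the longest. The same bins showed a smaller range in JQ1 over DMSO. Medians there ran from -0.05 to 0.20 by transcript length and from -0.09 to 0.30 by span. In the resistant line dBET6 over JQ1 had a like slope by transcript length, from 0.87 to -0.82. The bins also differ in level and in biotype: the shortest held genes with a median of 0.458 CPM, and the longest 18.4 CPM. Among protein-coding genes 34.7% were higher and 45.7% lower (median -0.20), among lincRNA genes 44.8% and 12.7% (median 0.81) and among antisense genes 38.4% and 15.7% (median 0.52). The difference between the medians of the longest and the shortest bin was -1.56, and -1.97 among genes of at least 10 CPM, while the part of biotype was not tested.

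**Figure D4:**
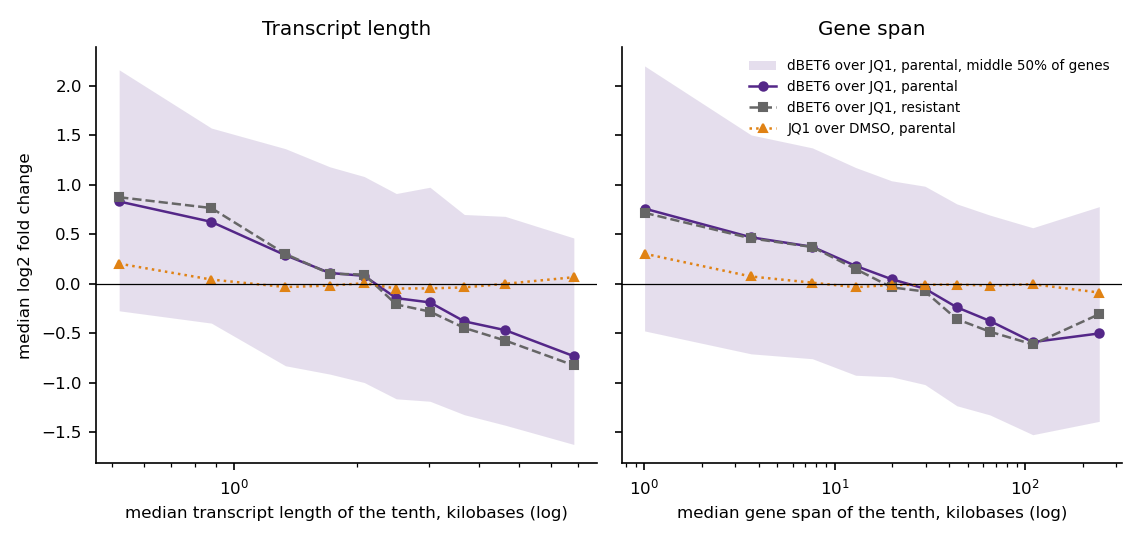
Median log2 fold change in 10 equal bins of the genes tested, by transcript length (left) and by genomic span (right), on log axes in kilobases. Purple points are dBET6 over JQ1 in parental cells with the middle 50% of genes shaded, grey squares the same comparison in the resistant line, and orange triangles JQ1 over DMSO in parental cells. By transcript length the purple median falls from 0.83 to -0.73 while the orange one stays between -0.05 and 0.20.

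The same comparison in the JQ1-resistant line used 4 other libraries and so gives a separate reading. There 14168 genes differed (74.2% of those tested), 6767 of them higher (35.4%) and 7401 lower (38.8%). Of the 6915 genes higher in parental cells 5528 were higher in resistant cells too (79.9% of the parental and 81.7% of the resistant list) and 167 were lower, and of the 7324 lower ones 6303 were lower too (86.1% and 85.2%) and 204 higher. Across the 19093 genes the 2 sets of log2 fold changes correlated with r = 0.844, given as a description over genes, which are not independent replicates. BRD3 was at 41.2 and 41.5 CPM with JQ1 and 8.52 and 8.72 CPM with dBET6 in the resistant line, a log2 fold change of -2.26, against -1.92 in parental cells. The difference between the lines did not pass the test (0.35, adjusted p = 0.0843), but passed with scaling to total counts (0.71, adjusted p = 0.000386).

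The difference between the lines passed the test for 5751 genes (30.1% of those tested), 2960 with a larger (15.5%) and 2791 with a smaller (14.6%) log2 fold change in parental cells. Of these calls 51.5% were larger, and 82.4% when scaled to total counts. MYC was lower with dBET6 than with JQ1 in parental cells (-0.69) and higher in resistant cells, at 115 and 115 CPM with JQ1 and 221 and 228 CPM with dBET6 (0.96), a difference of -1.66 (adjusted p = 1.38e-10). CCND1 went the other way, from 0.73 in parental to -0.51 in resistant cells (difference 1.24, adjusted p = 1.12e-08), as did E2F1, from 0.96 to -0.45 (difference 1.41, adjusted p = 6.14e-09), although the parental direction of both turned on the mitochondrial scale. The cytokine gene CSF3, which the naming rule put first, was at 15.7 and 12.9 CPM with JQ1 and 52.6 and 50.6 CPM with dBET6 in parental cells and at 26.9 and 26.7 against 3.5 and 4.24 CPM in resistant cells (1.85 and -2.78, difference 4.63, adjusted p = 7.67e-15). CDKN1A was higher with dBET6 in both lines, and more so in the resistant one (4.78 and 5.36, difference -0.58, adjusted p = 0.000819), a difference that did not pass with scaling to total counts (-0.22, adjusted p = 0.0833) or to mitochondrial mRNAs (-0.56, adjusted p = 0.205).

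**Figure D5:**
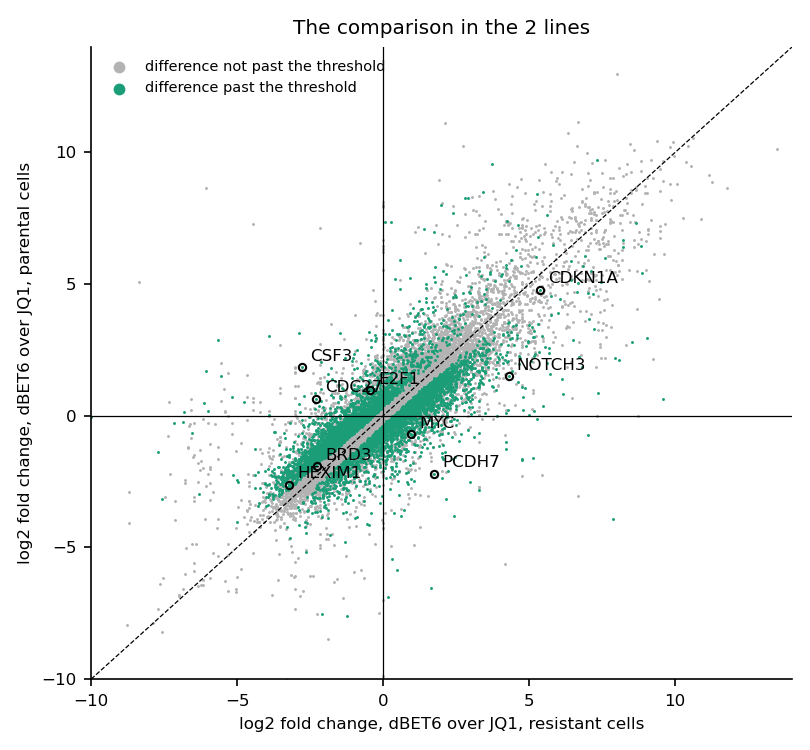
Log2 fold change of dBET6 over JQ1 in parental cells (vertical) against resistant cells (horizontal), with 1 point for each of the 19093 genes tested, green for the 5751 whose difference between the lines passed the threshold and grey for the rest, and the dashed line marking equal values. Most genes lie in the lower left and upper right, and MYC, E2F1, CSF3, CDC27 and PCDH7 lie in the other 2 quadrants.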

How the data were processed

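RNA-seq of polyadenylated RNA was measured in 12 libraries, of which the 4 parental libraries with dBET6 or JQ1 carry the comparison. Per the file headers, each library holds estimated counts and TPM per transcript in the form written by kallisto, and per the submitters' processing notes kallisto and DESeq2 were used with build hg19, with versions not given in the sources used here. A deposited table of FPKM values per gene covers the same libraries, and how the authors computed it is not given. Of 196354 transcripts 92.1% could be paired with a gene through GENCODE 29 (GRCh38), which holds 94.7% to 96.2% of the counts. Each gene's estimated counts were added up over its transcripts, then rounded to whole numbers. Against the deposited FPKM, 82.0% of 10511 genes were within 1% and 5.85% were below 0.8 of the level, so those genes are undercounted. Coordinates are GRCh38 by gene ID, while the submitters name hg19. Promoters came from RefSeq and were matched by symbol.

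edgeR 4.0.16 (R 4.3.3) fitted quasi-likelihood models to all 12 libraries with TMM factors, filterByExpr and a mean per group (6 residual degrees of freedom), and adjusted p-values by Benjamini-Hochberg over 19093 genes at a threshold of 0.05. The biological coefficient of variation was 7.88%. SEs and 95% intervals come from the same fit, and the procedure was tested on simulated data. Few genes were changed in that simulation, in random directions, so it could not test the choice of scale. limma 3.58.1 on log2(FPKM + 1) and log2(FPKM + 0.1), DESeq2 1.42.0, other scalings and filters, a replicate block and the loss of each library were alternatives. Named genes were taken by fixed rules: the 12 largest changes each way among protein-coding genes of at least 10 CPM whose groups did not overlap, 11 genes given by name, the 4 clearest members of each list in its main direction at 1 CPM or more, genes with DMSO between the compounds, genes moved alike by at least 4-fold, the 6 largest differences between the lines each way, and genes under 0.5 CPM with 1 compound. Results for some of these genes are not reported here. Some further list members were named after their values were seen. The members, lists and rules were chosen with earlier results of these data known. Of 130 genes considered for naming 34 overlap another tested protein-coding gene, and the strand setting of the counting is not given, so such pairs are uncertain. Intervals of ratios of counts cover counting error only. Same-numbered replicates did not deviate together, so they were not paired.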

Additional observations from a re-analysis of the deposited data

Results flagged for a closer look

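The response to dBET6 relative to JQ1 differed between the lines for 5751 genes in the edgeR test of the difference itself, and the genes the report names are given here as parental minus resistant log2 fold change. Among the genes of the BET and cereblon system the difference was 0.61 for HEXIM1 (adjusted p = 0.00181) and 0.97 for CRBN (adjusted p = 0.000277), and both were lower with dBET6 in both lines. The CRBN difference did not pass on log2(FPKM + 0.1) (0.15, adjusted p = 0.691) or log2(FPKM + 1) (0.12, adjusted p = 0.736), and that of HEXIM1 did not pass on log2(FPKM + 1) (0.46, adjusted p = 0.0533) or scaled to mitochondrial mRNAs (0.63, adjusted p = 0.146). Among cell cycle genes it was 1.24 for CCND1, 1.41 for E2F1 and -0.58 for CDKN1A, and for MYC it was -1.66.

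Among the genes with the largest differences, those with the larger parental value were CSF3 (4.63), ZBTB41 (3.15), CDC27 (2.94), ELOVL4 (2.75), EYA3 (2.56) and PRR14L (2.45). CDC27, a subunit of the anaphase-promoting complex, was at 75.7 and 83.2 CPM with JQ1 and 118 and 131 CPM with dBET6 in parental cells, and at 83.9 and 81.8 against 16.4 and 17.5 CPM in resistant cells. The ELOVL4 difference was 1.47 on log2(FPKM + 0.1) and 0.04 on log2(FPKM + 1), where it did not pass (adjusted p = 0.897), and that of ZBTB41 was 1.90 on log2(FPKM + 1). The PRR14L difference, with an adjusted p of 0.0392, did not pass in the DESeq2 test (adjusted p = 0.0946), with the replicate block (0.064), with no filter (0.0701), or in a fit of only the libraries compared (0.115). Nor did it pass on log2(FPKM + 0.1) (0.54, adjusted p = 0.423) or log2(FPKM + 1) (0.31, adjusted p = 0.47), or without any 1 of the parental, resistant DMSO or resistant JQ1 libraries (adjusted p from 0.0641 to 0.0986). It was 5.10 without the first resistant dBET6 library and 1.51 without the second, and its resistant dBET6 libraries stood at 3.78 and 0.312 CPM. Those with the larger resistant value were UBE2K (-4.32), PCDH7 (-3.92), FAM228B (-2.85), NOTCH3 (-2.79) and TP53I3 (-2.71). UBE2K and PCDH7 were at or under 0.35 CPM with JQ1 in the resistant line, against 30.1 and 36.4 CPM for UBE2K and 28.7 and 29.1 CPM for PCDH7 in parental cells. The PCDH7 difference was -2.15 on log2(FPKM + 0.1) and -1.36 on log2(FPKM + 1), and that of NOTCH3 was -1.58 and -0.43, the last of which did not pass (adjusted p = 0.176). FAM228B and TP53I3 overlap on opposite strands, and their counts cannot be told apart. NOTCH3, a receptor of the Notch pathway, was at 11.5 and 10.4 CPM with JQ1 and 33.3 and 28.7 CPM with dBET6 in parental cells, and at 1.02 and 0.631 against 17.2 and 15.3 CPM in resistant cells.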

How the results depend on the processing

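Among 151 results on single genes, 3202 of 3306 values under the alternatives kept their side of the threshold and, where called, their direction. A change of sign between values that were not called is counted among the 3202. Several alternatives leave out a library of a group outside the contrast, which can move its values only through the shared fit. Many of the genes were also named for large or clear differences, so most values could be foreseen to keep their side. The count of genes that differed in parental cells (14239) lay between 13447 and 14669 with each library left out (higher 6298 to 7120, lower 7032 to 7566), that in resistant cells between 13205 and 14537, that of the difference between the lines between 4686 and 5777, JQ1 against DMSO between 7804 and 9569, and dBET6 against DMSO between 13752 and 15082. With a mean of at least 10 CPM fewer genes were tested and 7592 were called (3530 higher, 4062 lower), with 7763 in resistant cells, 5751 for JQ1 and 7613 for dBET6 against DMSO, and the length difference went from -1.56 to -1.97. There CCNT1 stood at 0.080, CDK9 at 0.16 and TUBB3 at 0.18. On log2(FPKM + 1) JQ1 against DMSO gave 6224 calls and the length difference -1.17, on log2(FPKM + 0.1) 6002 calls and 3796 for the difference between the lines, and EGFR turned to 0.57 and 0.59. On log2(FPKM + 0.1) BRD3 (-0.99), RTF1 (-1.21), RBL1 (-1.08), CDK6 (-0.81) and BRCA2 (-1.57) kept their direction with values over 1.5 times smaller. Scaled to mitochondrial mRNAs 1910 genes were higher and 12713 lower, and 2005 differed between the lines. That scale reversed the medians of the NRF2 (-0.80), immediate early (-0.038), matrix (-0.44), histone (-0.87), ribosomal protein (-0.53) and oxidative phosphorylation (-0.83) lists. It also turned the smaller positive medians of the Pol II subunit (-1.13), ATF4 (-1.10), NF-kB (-1.06), heat shock (-1.27), hypoxia (-1.27), autophagy (-1.33) and death inhibitor (-1.25) lists. It reversed POLR2E (-0.15), E2F1 (-0.51), CCND1 (-0.75), MCL1 (-0.093), BIRC5 (-0.16), NDUFB8 (-0.12), HIST1H2BD (-1.31, and -0.34 by total counts), CDC27 (-0.82), EYA3 (-0.71), ZBTB41 (-0.085) and SERPINI1 (-1.11), since it moves every gene down by the same step. For the other changes the cause was not tested. Deviations of same-numbered replicates correlated between -0.0581 and 0.0609, so the numbers pair nothing; with the replicate block 14155 genes were called in parental cells. With 2 libraries per group the spread rests on all 12 libraries.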
